A study of Mus musculus with 12 samples.

Results

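The collagen and basement membrane genes of the dorsal root ganglion were taken as every gene name in the count tables that reads Col, a number, a and a number, every name that starts with Lama, Lamb or Lamc and a digit, and the names Nid1, Nid2, Fn1, Hspg2 and Agrn. This gave 60 genes of 44345 names. By the kind of protein they fell into 11 fibrillar collagens, 9 fibril-associated collagens, 9 network-forming chains of types IV, VIII and X, 9 beaded-filament and anchoring chains, 4 transmembrane collagens, 2 multiplexins, 5 laminin alpha, 3 beta and 3 gamma chains, and 5 nidogens, heparan sulfate proteoglycans and fibronectin. The choice rests on names alone and used no measured value, but it was made with earlier results of these data known.

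The libraries came from sciatic dorsal root ganglia (DRG), the clusters of sensory neurons beside the spinal cord that serve the hind limb, of C57BL/6 mice aged 5 to 8 weeks with no genetic change given in the labels. The 4 groups of 3 libraries were large-diameter neurons captured after 10 days of environmental enrichment (EE), the same neurons after 10 days of standard housing (SH), whole ganglia after EE and whole ganglia after SH. Captured neurons measured at least 30 µm across, were cut by laser from stained sections of 16 µm and came from 3 mice per library, while whole ganglia were pooled from 2 mice per library. The labels do not state if replicate libraries had different mice behind them. A p-value here thus reflects library-to-library spread only, and that spread may be technical. Captured RNA had a lower stated integrity, went into a kit that depletes ribosomal RNA and gave reads of 125 bases, whereas whole-ganglion RNA went into a poly(A) kit with reads of 100 bases. Capture, kit, RNA integrity and read length therefore cannot be told apart in any comparison of captured with whole. Whole-ganglion column names also carry Sham, a term the labels do not explain, and captured column names do not. Whether a sham procedure also set the preparations apart is not known.

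Collagens are triple-helical proteins, and the fibrillar types build the fibres of connective tissue such as the capsule and the endoneurium of a ganglion. A basement membrane is the thin sheet on which Schwann cells, satellite glia and blood vessels sit. It is built from a network of laminin heterotrimers, each an alpha, a beta and a gamma chain, and a network of type IV collagen, which nidogens and perlecan link together. In peripheral nerve this sheet is known to be required for ensheathment of axons.

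Chromosomal arrangement sets some of these genes apart. Col4a1 and Col4a2, the chains of the common type IV trimer, lie head to head on chromosome 8 of GRCm38, the assembly of the mm10 build the submitters name, and the transcribed ends overlap, since the start of Col4a2 lies 21 bases inside Col4a1. Col4a4 and Col4a3 lie head to head on chromosome 1 with 72 bases between their start sites, and Col4a6 and Col4a5 on the X chromosome with 1309 bases. Promoter windows of 250 bases before to 50 bases after the start are shown, 5′ to 3′ on each gene's own strand, for the head-to-head pair and for 3 fibrillar collagens whose captured and whole levels differed. Capitals mark a GC box, searched on both strands as GGGCGG. They also mark a CCAAT box, searched on both strands by the letters of its name. A TATA box, searched on both strands as TATAAA, was in none of the 5 windows. No matches overlap in the windows shown. The sequences are from RefSeq, GRCm38.p6.
Col4a1, minus strand, chr8:11312777-11313076: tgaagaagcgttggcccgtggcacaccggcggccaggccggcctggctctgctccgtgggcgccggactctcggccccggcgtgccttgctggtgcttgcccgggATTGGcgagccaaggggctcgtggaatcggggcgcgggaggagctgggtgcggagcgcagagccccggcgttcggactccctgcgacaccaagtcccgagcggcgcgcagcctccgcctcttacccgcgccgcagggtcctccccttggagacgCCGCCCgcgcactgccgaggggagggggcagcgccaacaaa
Col4a2, plus strand, chr8:11312555-11312854: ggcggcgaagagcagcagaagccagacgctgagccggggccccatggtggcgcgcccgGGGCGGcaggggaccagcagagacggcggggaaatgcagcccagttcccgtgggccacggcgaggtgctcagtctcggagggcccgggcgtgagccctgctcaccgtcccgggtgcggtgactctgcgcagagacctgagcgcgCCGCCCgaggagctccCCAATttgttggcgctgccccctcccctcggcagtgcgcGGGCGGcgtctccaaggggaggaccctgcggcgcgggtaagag
Col11a1, plus strand, chr3:114030290-114030589: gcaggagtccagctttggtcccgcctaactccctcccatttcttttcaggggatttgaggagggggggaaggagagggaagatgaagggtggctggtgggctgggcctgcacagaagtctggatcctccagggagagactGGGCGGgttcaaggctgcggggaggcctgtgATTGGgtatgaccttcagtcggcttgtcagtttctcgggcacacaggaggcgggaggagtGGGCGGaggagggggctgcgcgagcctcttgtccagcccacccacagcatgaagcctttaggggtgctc
Col24a1, plus strand, chr3:145292222-145292521: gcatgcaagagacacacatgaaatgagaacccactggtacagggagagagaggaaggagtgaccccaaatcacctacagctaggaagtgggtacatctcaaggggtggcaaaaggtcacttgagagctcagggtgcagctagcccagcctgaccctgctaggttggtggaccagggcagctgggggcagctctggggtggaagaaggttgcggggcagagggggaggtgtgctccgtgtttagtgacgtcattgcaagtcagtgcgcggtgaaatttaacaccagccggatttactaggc
Col1a2, plus strand, chr6:4505368-4505667: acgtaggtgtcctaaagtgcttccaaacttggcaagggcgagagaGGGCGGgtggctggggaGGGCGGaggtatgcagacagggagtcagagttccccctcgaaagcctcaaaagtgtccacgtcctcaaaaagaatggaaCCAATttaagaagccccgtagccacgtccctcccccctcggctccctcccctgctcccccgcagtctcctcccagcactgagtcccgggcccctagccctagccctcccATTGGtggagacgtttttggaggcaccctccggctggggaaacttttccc
The type IV windows share bases on opposite strands. Col4a1 held 1 GC box and 1 CCAAT box, and Col4a2 held 3 GC boxes and 1 CCAAT box. Col11a1 held 2 GC boxes and 1 CCAAT box, Col1a2 held 2 of each, and Col24a1 had no match to any of these letters. A promoter was listed for 43 of the 60 genes, as 48 windows. Of these windows 62.5% held a GC box, 31.2% a CCAAT box and 10.4% a TATA box, against 35.7%, 37.4% and 13.6% of all 32841 listed promoter windows of the same length. The matches describe letters only.

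Reads in genes numbered 19296230 to 29434351 per captured library and 11343579 to 17036481 per whole library, and the 60 genes held 0.130 to 0.172% and 0.112 to 0.149% of them. Levels are CPM, the counts of a gene relative to all reads in genes, scaled by TMM over all 12 libraries. Captured libraries were not free of other cells. Summed over 12 satellite glia markers they held 4410 to 5560 CPM against 3690 to 4130 CPM in whole libraries, over 13 Schwann cell markers 3080 to 3450 against 7040 to 9730 CPM, over 15 fibroblast and meningeal markers 346 to 517 against 1130 to 1530 CPM, over 12 endothelial markers 151 to 179 against 165 to 219 CPM, over 11 mural markers 292 to 496 against 315 to 380 CPM and over 11 macrophage markers 57.4 to 91.1 against 123 to 157 CPM. Cartilage and bone markers (11 genes) summed to 83.5 to 96.1 CPM in captured libraries and 52.5 to 62.8 CPM in whole ones, and erythrocyte markers (9 genes) to 34.1 to 52.8 CPM and 237 to 697 CPM. Marker sums did not bear out the label of large neurons in SH. There 13 large-neuron markers summed to 10600, 9230 and 11500 CPM in captured and 13800, 14400 and 14700 CPM in whole libraries. In EE they summed to 11700, 15700 and 16200 CPM in captured and 13400, 13200 and 12800 CPM in whole libraries. Sums of 11 nociceptor markers were 3840, 4260 and 3590 CPM in captured SH and 3440, 3320 and 3720 CPM in whole SH libraries. In EE those sums were 3600, 2820 and 3030 CPM in captured and 3570, 3500 and 3470 CPM in whole libraries. The 8 pan-neuronal markers summed to 6310 to 7040 CPM in captured and 9390 to 9780 CPM in whole libraries. Captured SH replicate 2 stood apart with 904 CPM over 12 skeletal muscle markers, where the other captured libraries had 36.1 to 101 CPM and whole libraries 109 to 338 CPM. One of these markers, Pvalb, is also on the list of large neurons. Over the other 11 muscle markers captured SH replicate 2 held 865 CPM, the other captured libraries 3.97 to 15.7 CPM, and whole libraries 10.6, 212 and 74.3 CPM in EE and 3.78, 15 and 163 CPM in SH. Without that library, 41 genes of the set differed between captured and whole SH libraries, against 39 with it, with a median log2 fold change of 0.50 against 0.46. In such bulk libraries fewer cells of a type and less RNA per cell cannot be told apart.

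Genes can be set side by side only per length, and the order turned on the length used. The length behind the authors' FPKM, used for the levels per kb here, was 0.644 to 2.28 times that of the longest annotated transcript over the 60 genes, with a median of 1.09, and was 2.28 times for Col1a2 and 1.72 times for Lamb1. On the authors' length, Col28a1, a beaded-filament-like collagen known in mouse from peripheral nerve and ganglia, had 21.7 ± 2.00 CPM per kb in captured SH neurons and 16.3 ± 0.824 CPM per kb in whole SH ganglia (SD, n = 3 each), the highest of the set in both. In captured SH neurons it was followed by Nid1 (17.5 ± 0.761), Lamb1 (13.4 ± 0.0994), Lamc1 (10.9 ± 0.384) and Lama2 (8.46 ± 0.234), without overlap between neighbours, whereas Lama2 overlapped with the next, Col3a1 (8.45 ± 2.87). In whole SH ganglia Col4a1 (13.2 ± 2.05) and Nid1 (12.8 ± 0.431) came next and overlapped, then Col1a2 (10.4 ± 1.41). On the longest transcript, an alternative added after seeing the data, Col1a2 stood first in whole SH ganglia (23.6 ± 3.22 CPM per kb), above Col28a1 (18.9 ± 0.958). In captured SH neurons Col28a1 (25.3 ± 2.33) then overlapped with Lamb1 (23.1 ± 0.171), and Col1a2 (16.2 ± 3.52) and Lama4 (15.4 ± 0.504) stood above Lamc1 (11.9 ± 0.419) and Lama2 (8.60 ± 0.237). Col28a1 and Nid1 were among the 5 highest of the set in both preparations on either length.

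**Figure D1:**
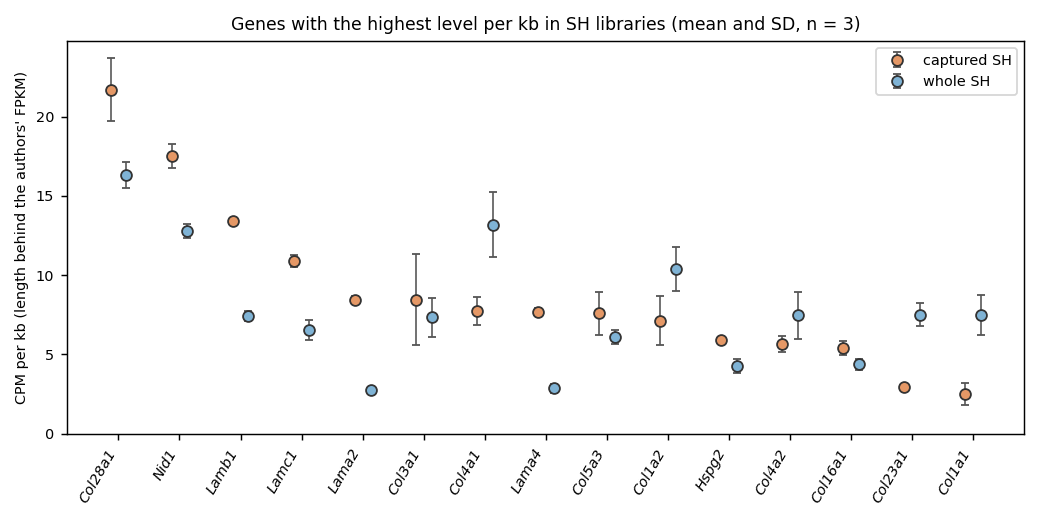
Level per length (CPM per kb of the length behind the authors' FPKM, vertical axis) of the genes that stood among the 12 highest in captured SH or whole SH libraries, as mean and SD of 3 libraries, with captured SH to the left of whole SH at each gene. Col28a1 and Nid1 were high in both preparations, Lama2 and Lama4 stood higher after capture, and Col1a1 and Col23a1 stood higher in whole ganglia.

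Captured neurons were compared with whole ganglia within SH and, in separate libraries, within EE. Of the 60 genes 56 were tested in this fit, and Col17a1, Col4a6, Col9a1 and Lamb3 had at most 15 reads in any library and were not. In SH, 32 genes were higher and 7 lower in captured neurons (adjusted p under 0.05 by edgeR's quasi-likelihood test, Benjamini-Hochberg over 17412 genes), or 57.1% and 12.5% of those tested, and 37.6% and 37.7% of all genes tested were called higher and lower. In EE, 33 were higher and 6 lower, or 58.9% and 10.7%, with 37% and 37.1% of all genes. With at least a 2-fold change also required, 17 genes were higher and 3 lower in SH (30.4% and 5.36%, against 17.5% and 20.4% of all genes), and 19 higher and 3 lower in EE (33.9% and 5.36%, against 15.7% and 19.6%). The median log2 fold change was 0.46 over these genes and −0.0056 over all genes in SH, and 0.55 and −0.0032 in EE. The 2 contrasts share no library: 31 genes were called higher in both, 5 lower in both and none in opposite directions. The same counts were not taken over all genes, so this agreement cannot be read as particular to the set.

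Long transcripts with little G and C had higher values after capture across the whole table, and this touches the set. The log2 fold change in SH followed transcript length with a rank correlation of 0.48 and GC content with −0.44 over the 56 genes, and with 0.45 and −0.50 over 15672 genes with a reference value, as a description in which genes share libraries. The set's transcripts had a median length of 6105 bases against 3235.5 bases for all genes, and a median GC content of 54.6% against 49.6%. They were thus longer, but not poorer in G and C. With both properties corrected per library, 25 genes were higher and 8 lower in SH (44.6% and 14.3%, against 34.9% and 32.1% of all genes), and 29 higher and 8 lower in EE (51.8% and 14.3%, against 35% and 31.4%). The medians were then 0.44 in SH and 0.60 in EE. With and without the correction, 20 genes were higher and 5 lower in both housings, counts that were not taken over all genes. With library size alone as the scale, the median of all genes moved to −0.23 in SH and −0.20 in EE and that of the set to 0.24 and 0.36.

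**Figure D2:**
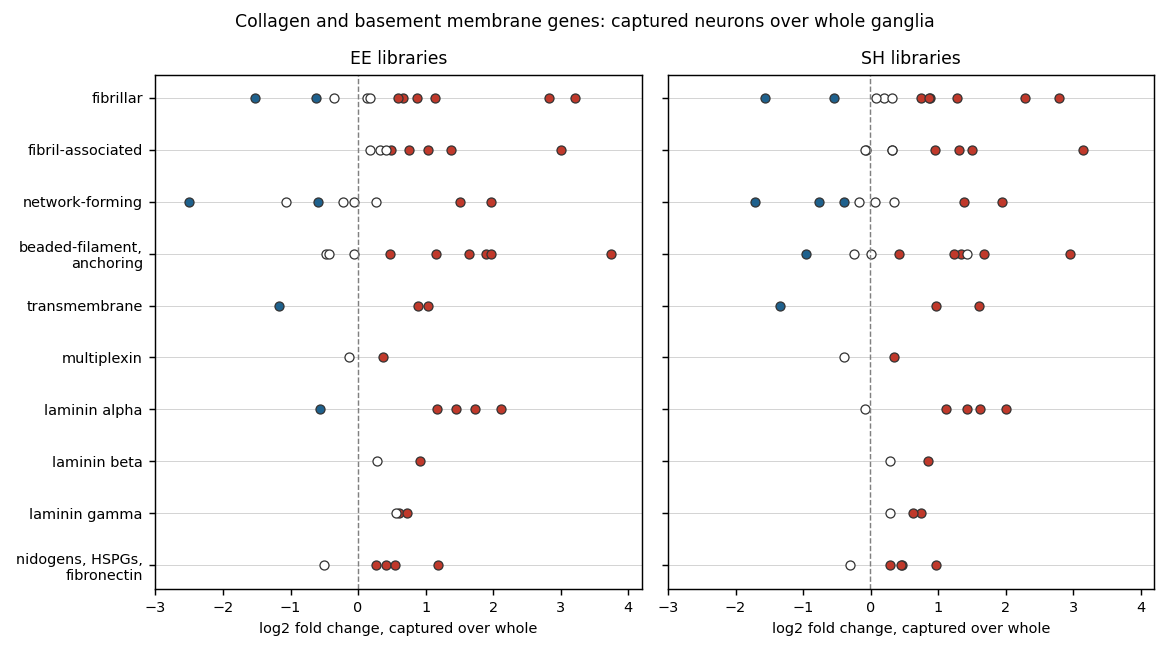
Log2 fold change of captured over whole libraries (horizontal axis) for each gene tested, by kind of protein (vertical axis), in EE libraries on the left and SH libraries on the right. Red points were called higher, blue points lower and white points neither, and the dashed line is the median of all genes tested. Of the 5 laminin alpha chains 4 were higher in both housings, and fibrillar and network-forming collagens lay on both sides. Of all genes tested, 37.6% were called higher in SH and 37% in EE.

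Fibrillar collagens split. Of 11 tested, 6 were higher and 2 lower in captured neurons in SH, and the same counts held in EE. Of all genes tested, 37.6% were higher and 37.7% lower in SH, and 37% and 37.1% in EE. These shares are the background for each count by role or marker list below. Groups this small give counts as description only. Col11a1, the alpha chain of type XI collagen that limits fibril width in cartilage, had 53.1, 42.7 and 54.1 CPM in captured SH libraries and 11.1, 10.1 and 9.62 CPM in whole SH libraries. It was 4.85-fold higher after capture (log2 fold change 2.28, SE 0.10, adjusted p = 5.31e-12 by edgeR), and 7.04-fold higher in EE. Col24a1, a fibrillar collagen known from developing bone, had 37.4, 26.9 and 39.1 CPM in captured SH libraries and 6.96, 3.90 and 3.91 CPM in whole SH libraries, a 6.90-fold difference (log2 2.79, SE 0.23, adjusted p = 1.24e-08). No captured library overlapped a whole one for either gene, and with length and GC corrected they stayed higher, at log2 1.46 and 2.25 in SH.

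The chains of type I collagen, the main fibre of connective tissue, went the other way. Col1a1 had 16.3, 12.3 and 21.3 CPM in captured SH libraries and 43.5, 58.8 and 45.6 CPM in whole SH libraries, and was 2.97-fold lower (log2 −1.57, SE 0.19, adjusted p = 1.05e-06). Col1a2 had 84.5, 69.4 and 107 CPM in captured SH libraries and 117, 146 and 116 CPM in whole SH libraries, and was 1.45-fold lower (log2 −0.54, SE 0.15, adjusted p = 0.00451). In both housings the captured libraries lay below all whole ones for both chains. Col3a1, the type III chain that mixes with type I fibres, had a log2 fold change of 0.20 (SE 0.19) in SH and overlapped between the preparations. Type V chains, which start fibrils, differed among themselves: Col5a2 was 1.82-fold higher in SH (adjusted p = 1.62e-05), and Col5a1 (log2 0.073, SE 0.21) and Col5a3 (0.32, SE 0.16) were not called. With length and GC corrected, Col5a2 was no longer called in SH (adjusted p = 0.0522) and Col5a3 was (log2 0.71, adjusted p = 0.000258).

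Beside these, markers of fibroblasts and meninges, the usual makers of fibrillar collagen, were lower in captured SH libraries for 13 of 15 genes and higher for 1, with a median log2 fold change of −1.61. Dcn, a proteoglycan of such cells, had 184, 124 and 190 CPM in captured SH libraries and 427, 400 and 362 CPM in whole SH libraries. Pdgfra, their receptor marker, had 21.7, 15.2 and 20.3 CPM in captured SH and 11.3, 14.4 and 14.0 CPM in whole SH libraries. Of the 11 cartilage and bone markers, 7 were tested, 2 were higher, and their median was 0.29. The part of any of these cells in the collagen values was not tested.

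Among fibril-associated collagens, 5 of 8 tested were higher and none lower in captured neurons in each housing. The shares of all genes were 37.6% and 37.7% in SH and 37% and 37.1% in EE. Col19a1, which in mouse brain is made by interneurons and takes part in synapse formation, had 13.6, 12.2 and 14.5 CPM in captured SH libraries and 1.70, 1.75 and 1.06 CPM in whole SH libraries. It was 8.89-fold higher in SH (log2 3.15, SE 0.18, adjusted p = 1.30e-10) and 8.00-fold higher in EE, and with the correction the log2 values were 2.64 and 2.55. Col14a1, which coats fibrils in dense tissue, was 1.93-fold higher in SH (adjusted p = 8.45e-06). Its partner in such tissue, Col12a1, had 62.1, 31.5 and 102 CPM in captured SH libraries and 18.5, 23.6 and 27.1 CPM in whole SH libraries. Its log2 fold change of 1.5 in SH (SE 0.29, adjusted p = 0.000199) came to 0.28 with length and GC corrected (adjusted p = 0.436), and in EE to −0.063. Col16a1 was 1.24-fold higher in SH (adjusted p = 0.0156), and Col9a2 lay at log2 −0.077 (SE 0.27), a value that became 1.04 with the correction (adjusted p = 0.00301).

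Network-forming chains of types IV and VIII did not move together. The common type IV chain Col4a1 had 52.2, 47.3 and 59.6 CPM in captured SH libraries and 76.9, 105 and 89.9 CPM in whole SH libraries, and was 1.71-fold lower (log2 −0.77, SE 0.14, adjusted p = 6.96e-05). Its head-to-head neighbour Col4a2 had 38.1, 33.9 and 40.7 CPM in captured SH libraries and 39.4, 58.8 and 50.8 CPM in whole SH libraries. Col4a2 was called lower in SH (log2 −0.40, SE 0.14, adjusted p = 0.0151) but not in EE (−0.068), nor in SH without whole SH replicate 2 (−0.27), without captured SH replicate 2 (−0.33) or with length and GC corrected (−0.12), and in EE it was 0.25 with that correction. The chains known from the filtration barrier of the kidney were scarce and higher after capture: Col4a3 had 4.78, 4.92 and 3.80 CPM in captured SH libraries against 0.822, 1.75 and 0.993 CPM in whole SH libraries (3.83-fold, adjusted p = 2.05e-05), and Col4a4 was 2.60-fold higher (adjusted p = 0.000453). The Col4a4 call was lost in SH with the correction (adjusted p = 0.147). Col8a2, a chain of the type VIII network of vessels and cornea, had 2.39, 0.710 and 2.35 CPM in captured SH and 5.09, 7.52 and 5.28 CPM in whole SH libraries, a 3.29-fold lower level (adjusted p = 0.000673), and Col8a1 was not called (log2 −0.18, SE 0.20) until the correction (−0.66, adjusted p = 0.00925).

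Endothelial markers stood beside the type IV values, with 9 of 12 called lower and 3 higher in captured SH libraries and a median of −0.70. Pecam1, an adhesion protein of endothelium, had 13.6, 11.6 and 15.4 CPM in captured SH and 18.7, 28.2 and 25.7 CPM in whole SH libraries. Of mural markers 5 of 11 were called higher and 2 lower, with a median of 0.42. Their part in the type IV and VIII values was not tested.

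Beaded-filament and anchoring chains held 5 higher genes and 1 lower one of 9 in SH, where 37.6% and 37.7% of all genes were higher and lower. Col28a1 had 109, 96.2 and 116 CPM in captured SH libraries and 84.7, 78.3 and 77.3 CPM in whole SH libraries, and was 1.33-fold higher (log2 0.42, SE 0.092, adjusted p = 0.000649). The type VI chains, which form microfilaments around cells, separated: Col6a3 was 2.54-fold higher in SH (adjusted p = 1.72e-06), while Col6a1 (log2 −0.24, SE 0.23) and Col6a2 (0.008, SE 0.20) were not called. Col7a1, the anchoring fibril collagen of skin, had 3.47, 3.75 and 4.19 CPM in captured SH and 1.59, 1.07 and 0.869 CPM in whole SH libraries, 3.19-fold higher (adjusted p = 2.49e-05). Col26a1 was called lower in SH (log2 −0.96, SE 0.27, adjusted p = 0.00443) and not in EE (−0.48, SE 0.28), and its value was 0.045 in SH and 0.50 in EE with the correction. In EE it was called in 2 of 18 alternatives, without whole EE replicate 1 (−0.67, adjusted p = 0.0426) and with library size alone (−0.68, adjusted p = 0.0384). Col6a6 was read 18, 29 and 9 times in captured SH libraries and 3, 3 and 0 times in whole SH libraries.

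Transmembrane and multiplexin collagens were few. Col23a1 had 17.5, 16.4 and 17.3 CPM in captured SH libraries and 39.4, 47.8 and 42.7 CPM in whole SH libraries, and was 2.53-fold lower (log2 −1.34, SE 0.16, adjusted p = 8.50e-07). Col25a1, a neuronal collagen needed for motor innervation in mouse, was 1.96-fold higher (adjusted p = 3.51e-06), a call that ended with the correction (log2 0.17, adjusted p = 0.258), and Col13a1 was 3.02-fold higher from about 1 CPM or less in every whole library. Col15a1 was 1.27-fold higher (adjusted p = 0.0167), and Col18a1, whose fragment is endostatin, lay at log2 −0.39 (SE 0.21). Col17a1, a collagen of skin attachment, stayed under 1 CPM in every library.

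Laminin chains were higher after capture where they were called in SH. Lama2, the alpha chain of the Schwann cell basement membrane, had 83.5, 80.1 and 84.4 CPM in captured SH libraries and 25.9, 29.3 and 25.5 CPM in whole SH libraries, and was 3.08-fold higher (log2 1.62, SE 0.097, adjusted p = 1.89e-10). Lama4, the alpha chain of vessels and nerve, had 90.6, 91.8 and 96.4 CPM in captured SH and 30.8, 38.1 and 35.2 CPM in whole SH libraries, 2.68-fold higher (log2 1.42, SE 0.076, adjusted p = 4.41e-11). Lama3, best known from skin, had 11.6, 12.1 and 16.4 CPM against 2.96, 3.83 and 3.17 CPM in the same groups, 4.03-fold higher (adjusted p = 1.17e-08). No captured library overlapped a whole library for these chains in either housing, and with length and GC corrected the log2 values in SH were 0.54 for Lama2, 0.99 for Lama4 and 1.11 for Lama3.

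The embryonic chain Lama1 was 2.16-fold higher in SH (adjusted p = 0.000473), though not with the correction (adjusted p = 0.0834), and Lama5 was not called in SH (log2 −0.089, SE 0.16; −0.48 with the correction, adjusted p = 0.0119) and lower in EE (−0.56, SE 0.16, adjusted p = 0.00513). Lamb1 had 133, 135 and 134 CPM in captured SH and 73.2, 77.7 and 71.8 CPM in whole SH libraries, 1.80-fold higher (adjusted p = 1.88e-08), and Lamc1 was 1.67-fold higher (adjusted p = 1.40e-06). Lamb2, the beta chain of synaptic basement membrane, was not called in SH (log2 0.29, SE 0.15), but was with the correction (0.58, adjusted p = 0.00284). Lamc3 was 1.55-fold higher (adjusted p = 0.00748). Schwann cell markers were lower for 11 of 13 genes and higher for 2 in captured SH libraries, with a median of −2.16. Satellite glia markers had a median of 0.14, with 5 of 12 higher and 2 lower. In EE the satellite glia median was 0.74, with 9 higher and 2 lower. The part of either glial type in the laminin values was not tested.

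Of the linking proteins, Nid1 had 108, 102 and 111 CPM in captured SH libraries and 77.3, 80.7 and 75.6 CPM in whole SH libraries, 1.37-fold higher (adjusted p = 7.62e-06). Nid2 had 20.7, 27.3 and 23.9 CPM in captured SH and 12.3, 11.8 and 12.8 CPM in whole SH libraries, 1.95-fold higher (log2 0.97, SE 0.11, adjusted p = 4.34e-07). Perlecan, encoded by Hspg2, was 1.39-fold higher (adjusted p = 0.00104) and agrin, encoded by Agrn and known from the neuromuscular junction, 1.22-fold higher (adjusted p = 0.0497, or 0.0623 with a replicate block). That block joins captured and whole libraries by replicate number, and the labels give no such pairs. With length and GC corrected Nid1 (log2 0.031), Hspg2 (−0.098) and Agrn (−0.031) were not called in SH, while Nid2 was (1.08, adjusted p = 1.34e-07). Fibronectin, encoded by Fn1, was not called (log2 −0.31, SE 0.28) until the correction (−0.82, adjusted p = 0.0167). Exons of Nid2 share 8.45% of their bases with Rtraf on the opposite strand, the most of any gene of the set, and whether the counting used strand is not given in the sources used here.

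**Figure D3:**
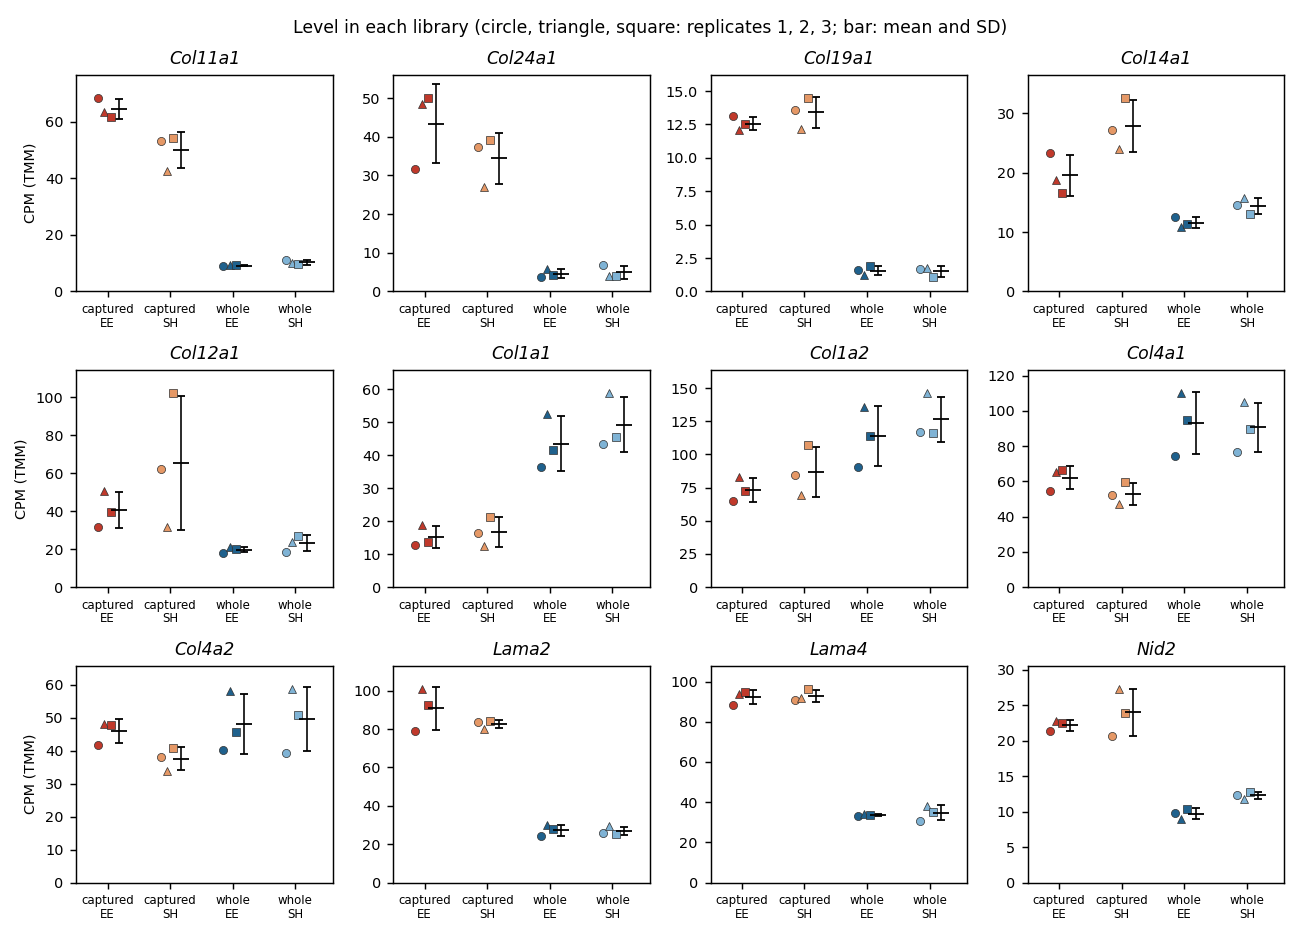
Level in CPM (vertical axis, from 0) of 12 genes in each library, with groups from left to right captured EE, captured SH, whole EE and whole SH. Symbols are the replicates and black bars the mean and SD of 3 libraries. Col11a1, Col24a1, Col19a1, Col14a1, Col12a1, Lama2, Lama4 and Nid2 had every captured library above every whole one. Col1a1 and Col4a1 had every captured library below.

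Most of the 12 ratios computed between chains of the same protein or family, and between the nidogens, separated captured from whole libraries. The level of such a ratio depends on the lengths used, but its comparison between libraries depends neither on them nor on a common scale factor. The link of captured values with transcript length and GC content, given above, does not cancel where the genes of a ratio differ in them. The ratios were not corrected for it. The ratio of Col1a1 to Col1a2 per kb was 0.356, 0.327 and 0.368 in captured SH libraries and 0.690, 0.744 and 0.725 in whole SH libraries. In EE it was 0.380 ± 0.0376 in captured and 0.712 ± 0.0347 in whole libraries (SD, n = 3). Col4a1 to Col4a2 was 1.37 ± 0.0473 in captured SH and 1.78 ± 0.0954 in whole SH libraries, Col6a3 to Col6a2 0.891 ± 0.0505 and 0.355 ± 0.0377, and Lama2 to Lamc1 0.779 ± 0.00793 and 0.423 ± 0.0342. Lama4 to Lamc1 was 0.705 ± 0.0202 in captured SH and 0.438 ± 0.00818 in whole SH libraries, and Nid2 to Nid1 0.280 ± 0.0483 and 0.195 ± 0.0146. The captured and whole libraries did not overlap in any of these 6 ratios, in SH or in EE. Col4a3 to Col4a4 did not overlap in SH (1.14 ± 0.188 in captured and 0.769 ± 0.104 in whole libraries). It did in EE (1.02 ± 0.308 and 0.798 ± 0.321). Overlap was not counted over other pairs of genes, and 37.6% and 37.7% of all genes were called higher and lower in SH. The separation can thus not be read as particular to these genes. Lamb1 to Lamc1 was 1.24 ± 0.0497 in captured SH and 1.15 ± 0.1 in whole SH libraries and overlapped, though not in EE (1.15 ± 0.0326 and 0.936 ± 0.0741). In an exact two-sided permutation test of 3 against 3 libraries each of the separated ratios gave p = 0.1, the smallest such groups allow, so none of the 12 ratios computed could pass 0.05.

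**Figure D4:**
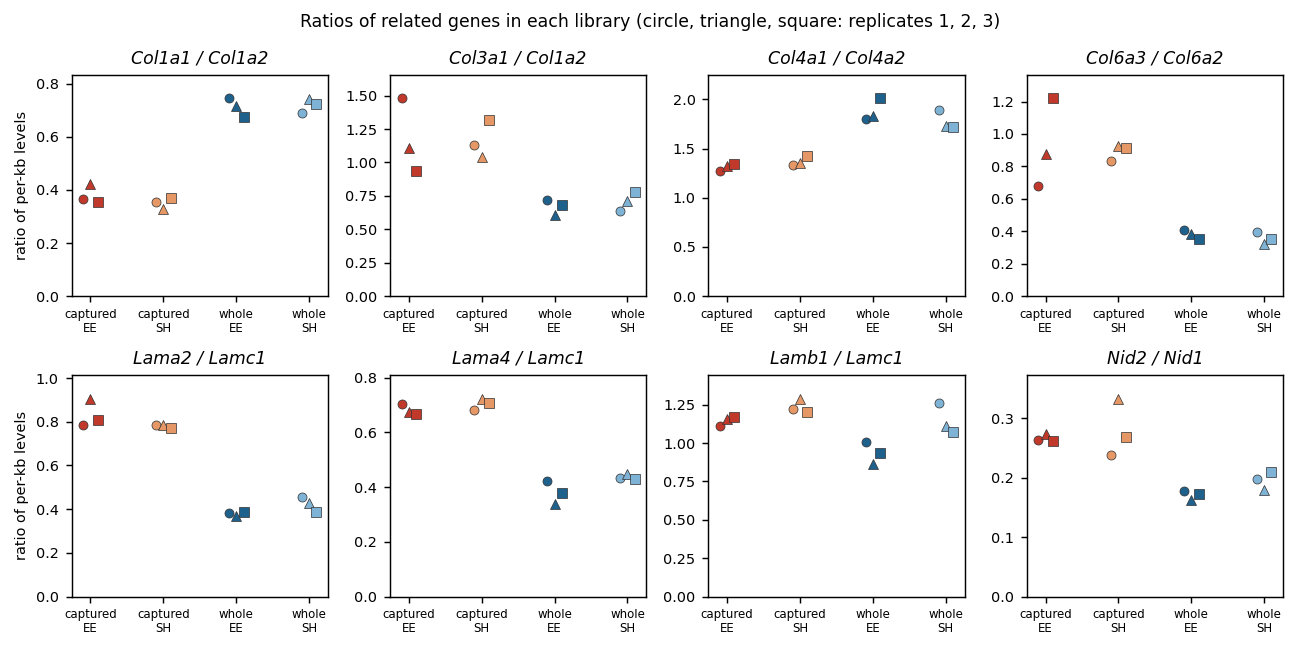
Ratio of the per-kb levels of related genes (vertical axis, from 0) in each library, with groups from left to right captured EE, captured SH, whole EE and whole SH and symbols for the replicates. Col1a1 over Col1a2 lay between 0.327 and 0.423 in captured libraries and between 0.676 and 0.745 in whole ones, and Lama2 over Lamc1 between 0.770 and 0.906 and between 0.370 and 0.455.

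Housing was tested within each preparation. In whole ganglia 50 of the 60 genes were tested, and the other 10 (Col10a1, Col13a1, Col17a1, Col22a1, Col2a1, Col4a6, Col6a4, Col6a6, Col9a1 and Lamb3) had at most 18 reads in any library. None of the 50 was called (edgeR quasi-likelihood, adjusted p under 0.05), where 0.00631% of 15845 genes were. Of the 50 genes 35 had a lower and 15 a higher estimate in EE, with a median log2 fold change of −0.12 and a range of −0.47 to 0.29, against a median of 0.0028 over all genes. The median of the 50 genes was −0.043 without whole EE replicate 1 and −0.042 without whole SH replicate 2. At an unadjusted p under 0.05, 3 genes were lower and none higher, or 6% and 0%, against 1.55% and 1.34% of all genes. The EE and SH libraries did not overlap in 6 genes, all lower in EE (12% of the 50, against 4.11% lower and 3.29% higher of all genes): Nid2, Col14a1, Nid1, Lamb1, Col11a1 and Col26a1.

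Nid2 had 9.87, 8.91 and 10.4 CPM in whole EE libraries and 12.3, 11.8 and 12.8 CPM in whole SH libraries. Its log2 fold change was −0.34 (SE 0.11, unadjusted p = 0.00975, adjusted p = 1 by edgeR). Col14a1 had 12.6, 10.8 and 11.3 CPM in whole EE and 14.6, 15.7 and 13 CPM in whole SH libraries (log2 −0.32, SE 0.11, unadjusted p = 0.0123 by edgeR). Both kept their groups apart, but neither reached the threshold. Col3a1 had 44.8, 57.3 and 53.5 CPM in whole EE and 51.4, 71.9 and 62.6 CPM in whole SH libraries (log2 −0.25, SE 0.11, unadjusted p = 0.0414 by edgeR), with overlapping groups. The smallest p values among genes with a higher estimate in EE belonged to Lamc1 (log2 0.17, SE 0.094), Lama5 (0.29, SE 0.16) and Col25a1 (0.22, SE 0.14). By role, 8 of 10 fibrillar, 6 of 7 fibril-associated and 4 of 5 linking genes had lower estimates in EE, with medians of −0.15, −0.20 and −0.13, and laminin alpha chains had 3 lower and 2 higher.

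The lanes of the sequencer pair the whole-ganglion libraries, and the level of the set varied between lanes. Relative to the SH mean, the median log2 level of the 50 genes was −0.24 in EE and −0.10 in SH in lane 4, 0.011 in EE and 0.13 in SH in lane 5, and −0.099 in EE and −0.048 in SH in lane 6. EE thus lay below SH within each lane. Schwann cell markers (13 genes) stood at −0.31 in EE and −0.024 in SH in lane 4, 0.23 and 0.13 in lane 5, and −0.00049 and −0.099 in lane 6, and fibroblast and meningeal markers (15 genes) at −0.12 and −0.22, 0.30 and 0.13, and 0.088 and −0.037. Fibroblast markers therefore lay above SH in EE in each lane, opposite to the set, and their part was not tested. With the lane pairs as a replicate block, 0.202% of all genes were called and again none of the 50, where Col3a1 came nearest (log2 −0.25, adjusted p = 0.177). At an unadjusted p under 0.05 by edgeR with this block, 18% of the 50 were lower and 2% higher in EE. The shares of all genes are not set beside these, so they are no result about the set.

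In captured neurons 57 of the 60 genes were tested, and Col10a1, Col9a1 and Lamb3 had at most 17 reads in any library. None was called with housing, where 0.0185% of 16186 genes were. Estimates were lower in EE for 34 genes and higher for 23, with a median of −0.057 against −0.00059 over all genes. That median was 0.029 without captured SH replicate 3 and 0.0083 with length and GC corrected, so its sign was not stable. At an unadjusted p under 0.05, 3 genes were higher and 2 lower (5.26% and 3.51%, against 7.3% and 8.62% of all genes), and the groups did not overlap in 2 higher and 2 lower genes (3.51% each, against 9.4% and 11.8% of all genes). Shares at or below those of all genes are no result about the set. Neuron markers differed in level between the same libraries. Relative to the SH mean, the median log2 level of 11 nociceptor markers was −0.25, −0.54 and −0.36 in captured EE and −0.017, 0.10 and −0.12 in captured SH libraries, without overlap. That of 13 large-neuron markers was 0.045, 0.54 and 0.59 in captured EE and −0.011, −0.18 and 0.15 in captured SH libraries, with EE replicate 1 among the SH values. Of the estimates, 9 of 11 nociceptor markers were lower and 12 of 13 large-neuron markers higher in EE, and none was called. Their part in the housing values of the set was not tested.

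Col11a1 had 68.5, 63.3 and 61.8 CPM in captured EE libraries and 53.1, 42.7 and 54.1 CPM in captured SH libraries. Every EE library lay above every SH library (log2 0.38, SE 0.099, adjusted p = 0.134 by edgeR). The type IV neighbours had similar estimates: Col4a2 had 41.8, 48.2 and 47.9 CPM in captured EE and 38.1, 33.9 and 40.7 CPM in captured SH libraries (log2 0.30, SE 0.093, adjusted p = 0.177), and Col4a1 had 54.5, 65.3 and 66.2 CPM in captured EE and 52.2, 47.3 and 59.6 CPM in captured SH libraries (0.23, SE 0.10, adjusted p = 0.31). Endothelial markers had a median of 0.17 in the same contrast, with 11 of 12 estimates higher in EE, none called and sums of 156 to 179 CPM in EE and 151 to 169 CPM in SH, and satellite glia markers 0.15, with 10 of 12 higher and 1 called. Their part in these values was not tested.

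On the lower side, Col14a1 had 23.3, 18.7 and 16.6 CPM in captured EE libraries and 27.1, 23.9 and 32.6 CPM in captured SH libraries, without overlap (log2 −0.50, SE 0.15, adjusted p = 0.167 by edgeR). Hspg2 had 58.4, 77.5 and 76.1 CPM in captured EE and 86.7, 81.7 and 85.9 CPM in captured SH libraries, also without overlap (−0.26, SE 0.10, adjusted p = 0.259). Col12a1 had 31.4, 50.6 and 39.5 CPM in captured EE and 62.1, 31.5 and 102 CPM in captured SH libraries (−0.68, SE 0.33, adjusted p = 0.352), and its estimate was −0.20 without captured SH replicate 3. That library was also the highest of the SH group for Col3a1 (97.5 CPM), Fn1 (36.5 CPM) and the sum of fibrillar collagens (463 CPM, against 304 and 377 CPM in the other SH libraries).

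Lanes were not balanced over housing after capture, since lane 1 held EE replicate 1 alone and lane 2 SH replicate 2 alone. Within lane 3, with 2 libraries each, 3 of 56 genes were called (5.36%, against 4.06% of all genes): Col14a1 (log2 −0.75, adjusted p = 0.00473), Col12a1 (−0.86, adjusted p = 0.0174) and Col24a1 (0.37, adjusted p = 0.0242), the last being higher in EE. Without captured EE replicate 1, Col14a1 was called (−0.65, adjusted p = 0.0297) and no other gene of the set, where 3.64% of all genes were called. DESeq2 called Col11a1 (0.38, adjusted p = 0.0219) and Col14a1 (−0.49, adjusted p = 0.0434), with 5.53% of the 9556 genes it gave an adjusted p. The edgeR test with no filter called Col11a1, Col12a1, Col14a1 and Col24a1, with 2.48% of 36332 genes. Col14a1 was thus called in 4 of 13 alternatives and had a negative estimate in each of them.

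**Figure D5:**
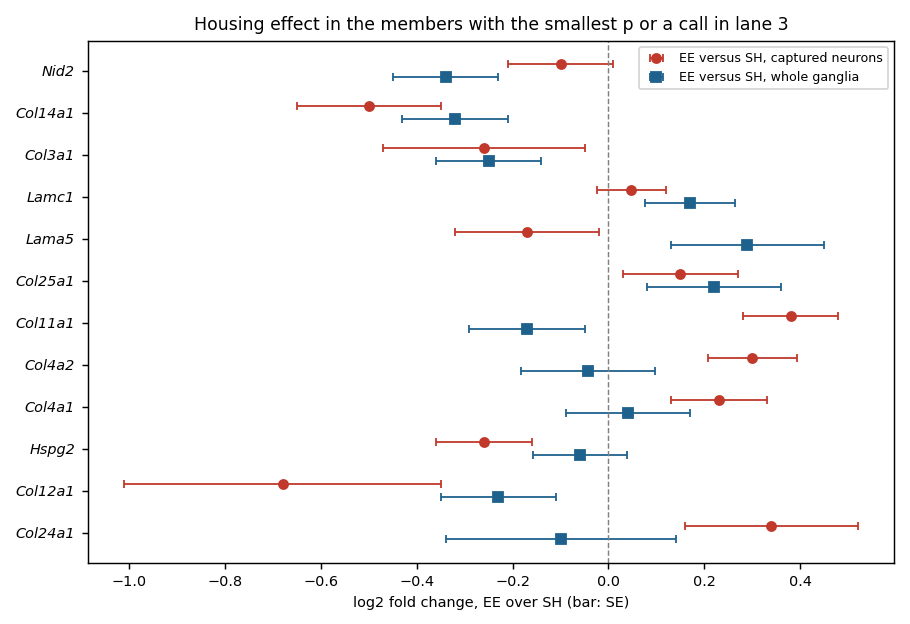
Log2 fold change of EE over SH with its standard error (horizontal axis) for 12 genes, with captured neurons as red circles above whole ganglia as blue squares. Col14a1 had estimates of −0.50 after capture and −0.32 in whole ganglia, and Col11a1 of 0.38 and −0.17.

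The difference between the housing effects of the preparations was tested over all 12 libraries. It was called for none of the 56 genes, and for 0% of 17412 genes. Its smallest p belonged to Col11a1, whose EE libraries lay above SH after capture and below SH in whole ganglia (8.86, 9.34 and 9.28 CPM in whole EE, 11.1, 10.1 and 9.62 CPM in whole SH). The difference was 0.54 on the log2 scale (SE 0.15, unadjusted p = 0.00204, adjusted p = 0.209 by edgeR). Across 18 alternatives it ranged over 0.43 to 0.64 and was called in 1, the edgeR test with no filter (adjusted p = 0.0463). For Col14a1, lower in EE in both preparations by estimate, the difference was −0.18 (SE 0.20).

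Other genes of the matrix were read from 4 lists. With housing, none was called in either preparation among 30 collagen-processing enzymes and chaperones, up to 24 tested matrix receptors, up to 24 tested proteases and inhibitors and 34 tested proteoglycans and glycoproteins. The smallest p values belonged in whole ganglia to Thbs4, a thrombospondin (log2 0.66, SE 0.20, unadjusted p = 0.0055 by edgeR), and P4ha1, a prolyl hydroxylase that matures collagen (−0.21, SE 0.090). For both genes the EE and SH libraries overlapped. Thbs4 had 7.94, 15.5 and 10.5 CPM in whole EE and 6.03, 7.12 and 8.44 CPM in whole SH libraries. In captured neurons the smallest p values belonged to Fbln2, a fibulin of basement membranes (0.36, SE 0.083, adjusted p = 0.126), Tnc, the tenascin of injured nerve (0.69, SE 0.21), Thbs4 (0.75, SE 0.24), Adamts3, a procollagen protease (−0.39, SE 0.11), and Plau, which activates plasmin (−0.45, SE 0.14). Between captured and whole SH libraries, 8 of 30 processing genes were higher and 16 lower (median log2 −0.39), 12 of 24 receptors were higher and 9 lower (0.23), 5 of 24 proteases and inhibitors were higher and 12 lower (−0.48), and 11 of 35 proteoglycans and glycoproteins were higher and 19 lower (−0.67). Of all genes tested 37.6% were called higher and 37.7% lower in SH, and counts near these shares are no result about a list. The medians of the 4 lists in EE were −0.13, 0.13, −0.36 and −0.67, and the collagen and laminin set stood at 0.46 in SH and 0.55 in EE. These medians are not corrected for length and GC content, and the lengths of the lists are not given here. They stand side by side as description only.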

How the data were processed

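RNA sequencing covered 12 libraries, 3 per group. The deposited tables give the authors' whole-number read counts per gene name, 1 table per preparation, and the authors' FPKM values for whole ganglia. A further deposited table of captured neurons holds signal values, each library's counts multiplied by its own constant (1.00 to 1.53) and not divided by length, and served as a check only. Per the submitters' processing notes, which give no roles, the tools were HTSeq 0.6.0, TopHat2 2.0.12, edgeR 3.8.6, FastQC 0.10.1, SAMtools 0.1.19, limma 3.22.7, Bowtie2 2.2.3 and R 3.1.1, with the build mm10. The 5 summary rows that name no gene were left out, and reads outside annotated features came to 28.0 to 36.3% in captured and 47.0 to 47.6% in whole libraries. No 2 libraries of a group were duplicates (chi-square per degree of freedom 3.95 to 21.5).

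Counts were tested with edgeR 4.0.16 in R 4.3.3 (filterByExpr, TMM, quasi-likelihood test, Benjamini-Hochberg over all genes tested, threshold 0.05), each preparation on its own for housing and all 12 libraries as 4 groups for captured against whole and for the difference. The common coefficient of variation was 0.121 in captured and 0.0741 in whole libraries and 0.101 over both. Levels per kb divide CPM by the length implied by the authors' FPKM of whole ganglia, carried over to captured libraries, or, as an alternative, by the longest transcript. Alternatives were DESeq2 1.42.0, other scalings, no filter, a replicate block, lane 3 alone, leaving out each library and, added after seeing the data, per-library offsets from splines of length and GC content with 4 degrees of freedom. Scripts were tested on simulated counts.

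Genes and lists were chosen with earlier results of these data known. Named genes were those called with housing, the 3 with the smallest p per direction and housing comparison, up to 4 per role by whole SH level, up to 8 per direction for captured against whole, and up to 3 per other list. Other genes named were chosen after their values were seen. Positions are from GENCODE vM21 (GRCm38). Whole-ganglion replicate numbers share a lane by the labels (4, 5 and 6) and so pair the libraries, and deviations from group means correlated at 0.33, 0.16 and 0.07 within numbers. Captured numbers do not follow the lanes and do not pair the libraries. Column names of whole ganglia also carry Sham, a term absent from the labels, and were matched by housing and number. Values of a few single genes are not reported here.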

Additional observations from a re-analysis of the deposited data

How the results depend on the processing

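In whole ganglia the count over all genes, 1 as reported, was 0 with library size alone, 48 with no filter, 32 with the replicate block, 24 with the replicate block and length and GC corrected, and 0 to 2 when a library was left out, and no gene of the set was called in any of them. In captured neurons the count over all genes was 902 with no filter, 528 with DESeq2, 658 in lane 3 alone, 0 with the replicate block (numbers that do not pair these libraries; deviations correlated at 0.11, −0.04 and 0.14) and 0 to 602 when a library was left out, against 3 as reported. The set's count there was 4 with no filter, 2 with DESeq2, 3 in lane 3 alone and 0 to 1 when a library was left out, against 0. For the difference between preparations the count was 457 with no filter, 160 with DESeq2, 1 with length and GC corrected and 0 to 233 when a library was left out, against 0, and the set's count was 1 with no filter and 0 elsewhere. For captured against whole, requiring 2-fold changed the set's count to 20 in SH and 22 in EE from 39 each, and that of all genes to 6607 and 6150 from 13107 and 12904. The set's median was 0.24 in SH and 0.36 in EE with library size alone. Estimates turned round for Col12a1 in EE (−0.063), Col26a1 in SH (0.045) and EE (0.50) and Col4a2 in EE (0.25) with length and GC corrected, and Col4a2 in EE ranged from −0.15 to 0.11 when a library was left out, the highest without whole EE replicate 2. The cause was not tested. With the replicate block, Agrn was no longer called between captured and whole SH libraries (adjusted p = 0.0623), and no other gene of the set tested there changed its call in any comparison. For captured against whole the block used replicate numbers, which do not pair these libraries by the labels. For single genes 694 values under an alternative kept their direction and their side of the threshold, 11 passed it only under the alternative and 4 no longer did. Depth limits the genes under about 1 CPM, among them Col17a1, Col4a6, Col9a1 and Lamb3.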
